A study of Mus musculus with 18 samples.

Results

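A set of 35 lysosome genes was followed in bone marrow-derived macrophages (BMDM) through 2 marks on lysine 27 of histone H3, acetylation (H3K27ac) and trimethylation (H3K27me3). The genes were chosen by name from the GENCODE vM21 annotation of the mouse genome (mm10), and make up 35 of 55413 annotated genes, of which 21938 are protein-coding. They comprise 7 cysteine cathepsins, 3 other peptidases, 7 glycosidases, 3 lipid hydrolases, 3 soluble cofactors and carriers, 6 membrane proteins, 5 subunits of the proton pump and 1 transcription factor, Tfeb.

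The study compared BMDM from WT mice, mdx mice, which carry a mutation in the dystrophin gene, and mdxTLR4-/- mice, which carry the mdx mutation and also lack the receptor TLR4, to learn how muscular dystrophy and TLR4 alter the chromatin of these cells. The labels give the strains as C57BL6 for WT, Dmdmdx-4Cv for mdx and Bl6/Bl10 for mdxTLR4-/-, so that the labelled strain and the genotype cannot be told apart. Each genotype gave 2 H3K27me3 ChIP samples with 2 inputs, whereas H3K27ac was profiled in 2 WT, 2 mdx and 1 mdxTLR4-/- samples beside a single input. All cells were cultured in medium with L929 supernatant and left untreated, and the germline alleles were present in every cell of the mouse, not in macrophages alone. The labelled age ran from 12 to 17 weeks over the H3K27me3 ChIP samples, from 19 to 23 weeks over the H3K27ac ChIP samples and from 6 to 18 weeks over the inputs. Among the ChIP samples of each mark, and among the H3K27me3 inputs, it rises by 1 week from one sample to the next, from WT through mdx to mdxTLR4-/-, so that the age as labelled cannot be told apart from genotype either.

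The authors merged the replicates before calling peaks, and 1 peak list per mark and genotype was deposited. Each value below is therefore 1 number per genotype, with no spread between mice, and no test between genotypes or between groups of genes was possible. Intervals are exact Clopper-Pearson intervals at the 95% level and cover counting error only. The H3K27ac peaks were shallow, with 274020 reads in the WT list, 191629 in mdx and 168487 in mdxTLR4-/-. The median peak had 10, 10 and 8 reads in these lists, and the smallest had 5. The H3K27me3 peaks held 8331331, 10199918 and 7358418 reads. Library depth is unknown here, so that the totals cannot be set against all mapped reads, and more or longer peaks raise them. The labelled cell type was checked on markers, and 10 of 10 macrophage markers (among them Spi1, Adgre1 and Lyz2) had an H3K27ac peak within 5 kb of the start in WT and mdxTLR4-/- BMDM, and 9 had one in mdx. The exception was Csf1r, whose peak in mdx did not reach the window although its merged region held 165 reads, against 162 in WT. Markers of erythroid cells, fibroblasts and muscle had no such peak in any list (0 of 7, 0 of 8 and 0 of 8). Neutrophil markers had it for 1, 0 and 0 of 8 genes, T cell markers for 1, 1 and 1 of 8, and B cell markers for 3, 2 and 2 of 7 in WT, mdx and mdxTLR4-/- BMDM. Histone peaks do not show whether the dystrophin or TLR4 alleles are as labelled.

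Lysosomes are acidic organelles that break down proteins, sugars, lipids and nucleic acids taken up by endocytosis, phagocytosis or autophagy. Macrophages, which clear dead cells and debris such as that of injured muscle, are rich in them. The proton pump (V-ATPase) acidifies the lumen, soluble hydrolases digest the contents, membrane proteins carry products and ions across the boundary, and the transcription factor TFEB and its relatives TFE3 and MITF bind E-box sites with the core CACGTG in the promoters of many lysosomal genes. H3K27ac marks active promoters and enhancers, and H3K27me3 is laid down by Polycomb complexes on silenced genes.

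The 4 promoters below are shown because they hold the longer form of this site, GTCACGTG, in genes with an H3K27ac peak. The sequences were taken from RefSeq (build GRCm38.p6), which gave a promoter for 28 of the 35 genes. The other genes were Atp6v1h, Atp6v1b2, Ctsh, Asah1, Ctsb, Atp6v0d2 and Npc1. Each sequence runs 5′ to 3′ on the strand of the gene, over 250 bases before the RefSeq start and the first 10 bases from it, and capitals mark CACGTG and the forms GTCACGTG and TCACGTGA on either strand.
Ctsd (chr7:142387818-142388077, minus strand): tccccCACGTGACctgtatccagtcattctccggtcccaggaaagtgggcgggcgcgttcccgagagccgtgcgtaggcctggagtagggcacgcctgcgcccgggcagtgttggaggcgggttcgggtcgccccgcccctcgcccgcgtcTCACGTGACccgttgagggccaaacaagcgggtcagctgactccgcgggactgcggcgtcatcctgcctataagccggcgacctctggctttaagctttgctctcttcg
Lamp1 (chr8:13158911-13159170, plus strand): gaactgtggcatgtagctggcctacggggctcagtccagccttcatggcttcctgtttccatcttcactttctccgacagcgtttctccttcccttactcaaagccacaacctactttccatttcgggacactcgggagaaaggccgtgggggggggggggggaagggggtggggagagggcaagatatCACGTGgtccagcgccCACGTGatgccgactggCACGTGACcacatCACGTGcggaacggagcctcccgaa
Atp6v0d1 (chr8:105566055-105566314, minus strand): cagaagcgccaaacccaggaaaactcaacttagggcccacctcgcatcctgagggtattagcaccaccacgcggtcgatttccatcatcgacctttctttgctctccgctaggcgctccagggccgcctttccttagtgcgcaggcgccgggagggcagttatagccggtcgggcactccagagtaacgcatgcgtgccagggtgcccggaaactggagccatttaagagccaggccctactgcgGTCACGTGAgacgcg
Glb1 (chr9:114400828-114401087, plus strand): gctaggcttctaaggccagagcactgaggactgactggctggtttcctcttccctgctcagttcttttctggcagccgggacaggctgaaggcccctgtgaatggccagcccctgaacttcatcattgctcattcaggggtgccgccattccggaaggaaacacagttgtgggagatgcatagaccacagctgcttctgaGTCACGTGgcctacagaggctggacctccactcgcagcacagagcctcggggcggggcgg

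Positions of these sites are counted from the first transcribed base as 0. Lamp1 held CACGTG at 4 places, beginning at -61, -45, -28 and -15. Ctsd held it at -245 and -98, Glb1 at -48, and in Atp6v0d1 the site began at -3 and so ran across the start. Over the full promoters, of 250 bases before and 50 from the start, searched on both strands, CACGTG was present in 8 of 28 lysosome genes (28.6%) and in 8.08% of 16522 protein-coding genes. GTCACGTG was present in 5 (17.9%, against 2.95%) and TCACGTGA in 4 (14.3%, against 1.27%), and each of these longer forms contains CACGTG, so the counts overlap. Besides the promoters shown, CACGTG lay in those of Atp6v1a, Ctsl, Gaa and Mcoln1. The letters GAGGAAGT, a form of the site of the myeloid factor PU.1, were present in 3 promoters, those of Ctsc, Ctss and Gusb (10.7%, against 3.15%). The members were close to other genes in base composition, with a median G+C content of 57.8% (57.0% in protein-coding genes) and a median ratio of observed to expected CpG of 0.541 (0.602). A match is a description of the letters and not evidence of binding.

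H3K27ac was present at the starts of most lysosome genes in every genotype. A gene was designated Increased (I) in a list with a peak within 5 kb of its start, the most upstream start that GENCODE gives, and Unchanged (U) otherwise, whatever the other lists held. By this rule 26 of 35 genes were Increased in WT (74.3%, against 32.0% of protein-coding and 19.6% of all genes), 26 in mdx (74.3%, against 27.4% and 16.4%) and 23 in mdxTLR4-/- BMDM (65.7%, against 29.4% and 17.4%). A peak was present in all 3 lists at 22 genes (62.9%, against 21.1% of protein-coding genes) and in none at 6 (17.1%, against 61.5%), and the designation differed between lists at 7. The share was thus more than that of protein-coding genes in each list, and the number that differed between lists was close to the 17.4% of protein-coding genes that did so. At 9 of the 35 genes another protein-coding start lay within 5 kb, so that a peak there cannot be assigned to 1 gene. In such bulk samples, fewer cells with a mark and less of it per cell cannot be told apart.

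**Figure D1:**
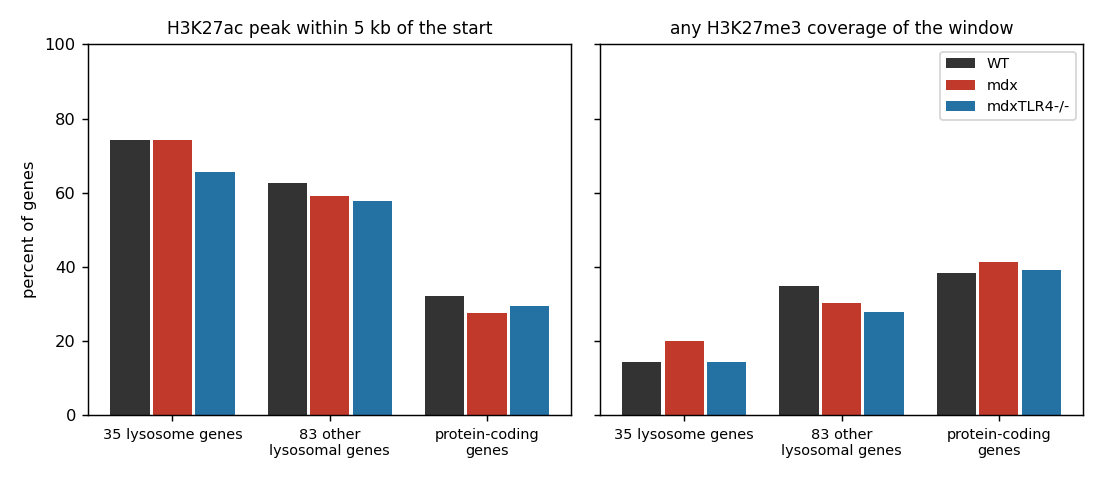
Percent of genes with an H3K27ac peak within 5 kb of the start (left) and with any H3K27me3 coverage of the gene window (right), for the 35 lysosome genes, 83 other lysosomal genes and 21938 protein-coding genes. Each bar is 1 peak list, with no replicate error. The lysosome genes stand at 65.7% to 74.3% for H3K27ac, above the protein-coding genes at 27.4% to 32.0%, and at 14.3% to 20% for H3K27me3, below the 38.4% to 41.3% of protein-coding genes.

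Read numbers were summed over merged regions. Peaks of different lists were joined wherever they shared a base, and the reads of each list in the merged regions touching the 5 kb window were summed. The files hold reads inside called peaks only, so the length and place that a sum covers differ between lists, and a longer called peak adds reads. These sums are not scaled for depth, and over all peaks WT held the most reads and mdxTLR4-/- the fewest. Among genes with a peak, the median was 36 reads in WT (n = 26 genes), 28.5 in mdx (n = 26) and 32 in mdxTLR4-/- BMDM (n = 23), against 16, 14 and 12 in protein-coding genes. Per kb of peak, the medians were 11.3, 10.6 and 7.65 reads, against 8.12, 7.5 and 7.14. The lysosome genes were therefore above other genes in reads per kb by more in WT and mdx than in mdxTLR4-/- BMDM, where both medians were low and close together. A peak covered the start itself at 21, 22 and 20 genes in WT, mdx and mdxTLR4-/- BMDM. The share of protein-coding genes with a peak over the start is not given here, so these counts have no comparison. The median length under H3K27ac within the window was 1079.5 bp upstream and 2106 bp downstream of the start in WT, so that more of the mark lay downstream (814 and 1115 bp in protein-coding genes). The start is the most upstream one, so a mark around an inner start, such as the RefSeq start of Scarb2 1176 bp further in, counts as downstream.

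**Figure D2:**
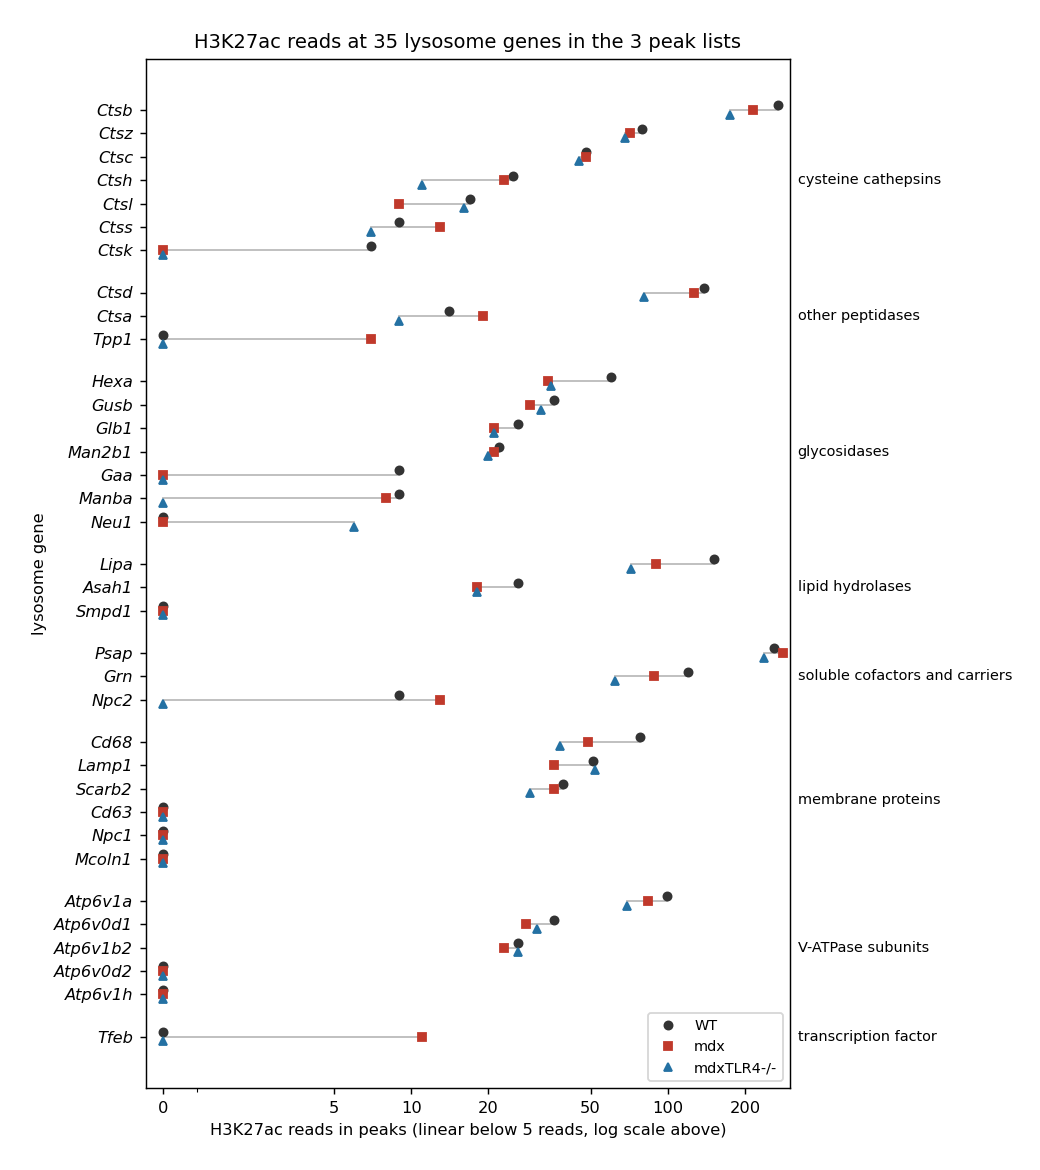
H3K27ac reads in whole merged regions touching the 5 kb either side of the start, for the 35 lysosome genes, grouped by role. The horizontal axis is linear below 5 reads and logarithmic above. Symbols are circles for WT, squares for mdx and triangles for mdxTLR4-/- BMDM. Grey lines join the lowest and highest list. Ctsb and Psap lie between 174 and 281 reads in all lists, and 6 genes lie at 0 in all lists.

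The 5 genes with the most reads in WT were Ctsb, Psap, Lipa, Ctsd and Grn, and together they held 56.4% of the reads at the 35 genes in WT, 57.1% in mdx BMDM and 54% in mdxTLR4-/- BMDM. Psap encodes prosaposin, the precursor of the saposins that help hydrolases reach membrane lipids. It lies on chromosome 10 (60277627 to 60302597, plus strand) and had 260, 281 and 236 reads in WT, mdx and mdxTLR4-/- BMDM. The main peak in WT was 12800 bp long, from 1426 bp upstream to 11373 bp downstream of the start, with 11147 bp in introns and 227 bp in exons of Psap. A smaller peak lay 3427 to 4826 bp upstream. Psap was highest in mdx, but the lists differed little, and its density was 18.3, 19.0 and 14.4 reads per kb.

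Ctsb (chromosome 14, 63122462 to 63145923, plus strand) encodes cathepsin B, a cysteine protease of the lysosome lumen. Its reads numbered 268 in WT BMDM, 215 in mdx and 174 in mdxTLR4-/-, or 17.9, 18.2 and 14.0 reads per kb. In every list a single peak ran across the start and deep into the gene, over 15000 bp, 11800 bp and 12400 bp in WT, mdx and mdxTLR4-/- BMDM, and in WT 11576 bp of it were intronic. WT was highest in reads, while the density was close in WT and mdx.

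Lipa (chromosome 19, 34492318 to 34527474, minus strand) encodes lysosomal acid lipase, which frees cholesterol and fatty acids from lipoprotein and cell debris. It had 151 reads in WT BMDM, 90 in mdx and 72 in mdxTLR4-/-. The mark formed a peak at the start and a second peak in the gene body, which in WT lay 4074 to 12073 bp downstream with 6933 bp in introns. Both peaks were shorter in mdx and shortest in mdxTLR4-/- BMDM, the second at 8000, 4600 and 3400 bp and the first at 3800, 2400 and 1400 bp. WT was highest for Lipa in reads and in length.

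Ctsd encodes cathepsin D, the main aspartic protease of lysosomes, on chromosome 7 (142375911 to 142388038, minus strand). The reads numbered 138, 126 and 81 in WT, mdx and mdxTLR4-/- BMDM, or 9.58, 7.41 and 7.23 reads per kb, so that mdx and mdxTLR4-/- were level in density. In mdx 1 peak of 17000 bp ran from 12562 bp upstream to 4437 bp downstream of the start. In WT 1 of 11200 bp with 101 reads ran from 7762 bp upstream. In mdxTLR4-/- BMDM 2 peaks touched the window, of 4400 and 4600 bp with 33 and 29 reads, and the start lay in the gap between them. The other reads of WT and mdxTLR4-/- lay further upstream, beyond the window, in the region joined by the mdx peak. The RefSeq start of Ctsd lies 211 bp from the GENCODE start, inside the gene, and the CACGTG at -98 from it lay under a peak in all 3 lists, and that at -245 in WT and mdx only.

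Grn encodes progranulin, a secreted and lysosomal glycoprotein whose loss causes lysosomal storage disease and brain degeneration. On chromosome 11 (102430315 to 102437048, plus strand), it had 120 reads in WT BMDM, 88 in mdx and 62 in mdxTLR4-/-. Each list had a peak over the start and a smaller one upstream, at 4515 to 6514 bp from it in WT. The order in reads was WT, mdx and mdxTLR4-/-, as for Ctsb, Lipa and Ctsd, whereas in density Grn was lowest in mdx (16.2, 10.7 and 12.4 reads per kb). It is also the order of all reads in peaks (274020, 191629 and 168487). Once the ratios to WT were divided by the median of protein-coding genes, the intervals of Ctsb, Ctsd and Grn included 1 and those of Lipa did not.

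**Figure D3:**
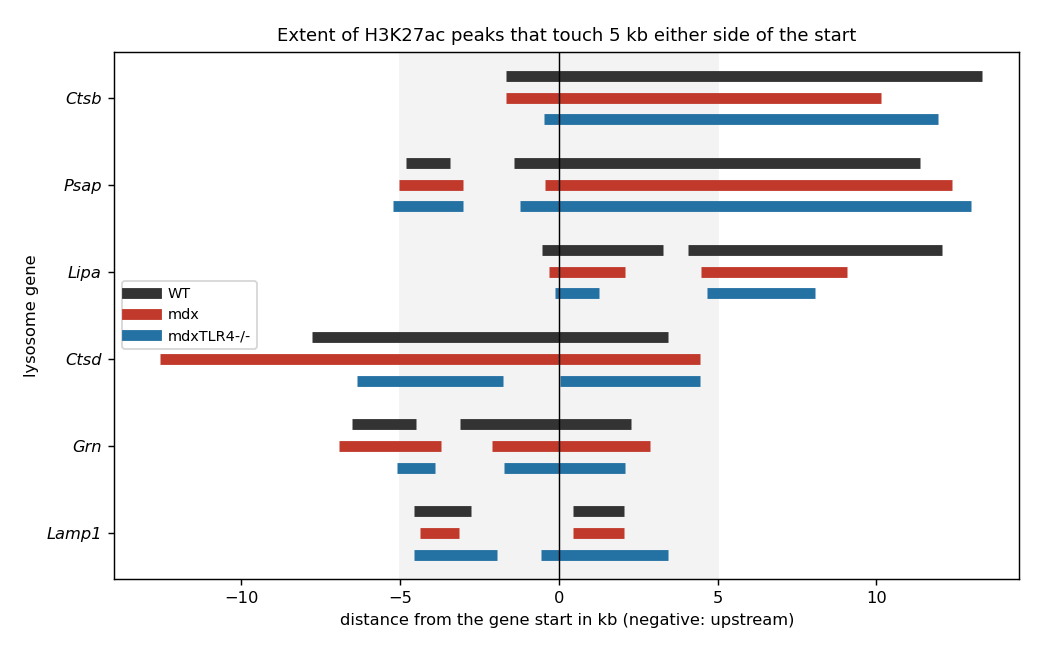
Extent of the H3K27ac peaks that touch the 5 kb either side of the start (grey band) in WT, mdx and mdxTLR4-/- BMDM, for the 5 lysosome genes with the most reads in WT and for Lamp1. The horizontal axis is the distance from the gene start in kb, negative upstream, and each bar is 1 peak. At Lamp1 the peak reaches over the start in mdxTLR4-/- BMDM, and in WT and mdx it begins 440 bp downstream.

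Of the cysteine cathepsins, 7 of 7 had a peak in WT and 6 of 7 in mdx and in mdxTLR4-/- BMDM. Besides Ctsb, Ctsz, an exopeptidase, had 79, 71 and 68 reads in WT, mdx and mdxTLR4-/- BMDM, and Ctsc, which activates the serine proteases of granules, had 48, 48 and 45. The lists lay close together in reads for both. Ctsh, an aminopeptidase, had 25 and 23 reads in WT and mdx and 11 in mdxTLR4-/- BMDM, so that it was low in the last list alone. Ctsl, a potent endopeptidase, had 17, 9 and 16 reads, or 10.6, 4.09 and 5.33 reads per kb, lowest in mdx. Ctss, which cuts the invariant chain of MHC class II, had 9, 13 and 7 reads, and in WT its peak lay 3586 bp or more upstream of the start while in mdx and mdxTLR4-/- BMDM it lay at the start. Ctsk, a collagen-degrading enzyme best known from osteoclasts, had 7 reads in WT, in a peak 856 to 2655 bp upstream that overlapped the neighbouring gene Arnt, and no peak in mdx or mdxTLR4-/- BMDM.

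Of the other peptidases, Ctsa, a carboxypeptidase that protects neuraminidase and β-galactosidase, had 14, 19 and 9 reads in WT, mdx and mdxTLR4-/- BMDM, in peaks that also covered the start of Neurl2. Tpp1, tripeptidyl peptidase 1, had a peak in mdx only, with 7 reads over the start. The nearest peak to its start was 14035 bp away in WT and 8435 bp away in mdxTLR4-/- BMDM.

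The glycosidases had a peak at 6 of 7 genes in WT and 5 of 7 in mdx and in mdxTLR4-/- BMDM. Hexa, the alpha subunit of β-hexosaminidase, had 60 reads in WT BMDM, 34 in mdx and 35 in mdxTLR4-/-, highest in WT. Its peak also covered the start of Tmem202 in every list. Gusb, β-glucuronidase, had 36, 29 and 32 reads. Glb1, β-galactosidase, had 26, 21 and 21 in a peak shared with the start of Tmppe, and its CACGTG lay under a peak in all 3 lists. Man2b1, lysosomal α-mannosidase, had 22, 21 and 20 reads, and a part of them lay in a second peak over the starts of Wdr83 and Wdr83os. For Gusb, Glb1 and Man2b1 the 3 lists lay close together in reads. In density Man2b1 was highest in WT, at 8.46, 4.57 and 5.56 reads per kb. Manba, β-mannosidase, had 9 reads in WT and 8 in mdx and no peak at this start in mdxTLR4-/- BMDM, where 7 reads lay around another annotated start 31539 bp further in. Gaa, acid α-glucosidase, which degrades glycogen and is mutated in Pompe disease, had 9 reads in WT in a peak over the start and over its CACGTG, and none in the other lists. Neu1, the lysosomal sialidase, had 6 reads in mdxTLR4-/- BMDM only. In WT and mdx the nearest peaks to Neu1 lay 5453 and 6053 bp from the start, just outside the window.

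Of the lipid hydrolases besides Lipa, Asah1, acid ceramidase, had 26 reads in WT and 18 in both mdx and mdxTLR4-/- BMDM. Smpd1, acid sphingomyelinase, had no H3K27ac peak in any list, and the nearest was 85441 bp from its start in WT. Among the soluble carriers, Npc2, which passes cholesterol to NPC1, had 9 reads in WT and 13 in mdx under peaks that also covered the start of Isca2. No peak reached the window of Npc2 in mdxTLR4-/- BMDM, but 1 lay 5152 bp from the start, just outside it, and another with 6 reads lay 540 bp from an annotated start 10612 bp further in.

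The membrane proteins were Increased in all 3 lists at 3 of 6 genes and in none at the other 3. Cd68, a glycoprotein used as a macrophage marker, had 78, 49 and 38 reads in WT, mdx and mdxTLR4-/- BMDM, in a gene-dense stretch. The start of Mpdu1 lay under a peak touching the window in every list. That of Eif4a1 did so in WT only, under a peak with 21 of the 78 reads. In mdx the peaks touching the window held 9 and 28 of the 49 reads, and the rest lay beyond it. Lamp1, the most abundant protein of the lysosome membrane, had 51, 36 and 52 reads under 3400, 2800 and 6600 bp of peak. Reads were lowest in mdx, but the density, at 15.0, 12.9 and 7.88 reads per kb, was lowest in mdxTLR4-/- BMDM. In WT and mdx its peaks lay on both sides of the start, 2761 to 4560 bp upstream in WT and 3161 to 4360 bp upstream in mdx, and 440 to 2039 bp downstream in both, and in mdxTLR4-/- BMDM that downstream peak began 560 bp upstream of the start. The 4 CACGTG sites of Lamp1 therefore lay under a peak in mdxTLR4-/- BMDM and in neither of the other lists. Scarb2, LIMP-2, the sorting receptor of glucocerebrosidase, had 39, 36 and 29 reads, all downstream of the most upstream start. The RefSeq start of Scarb2 lies 1176 bp further in, and the peaks of all 3 lists ran across it.

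Cd63, a tetraspanin of late endosomes, Npc1, the cholesterol exporter, and Mcoln1, the cation channel TRPML1, had no peak within 5 kb of the most upstream start. Cd63 and Npc1 had one at another start. Around a second annotated start 7831 bp into Cd63, each list had a peak, with 14 reads in WT BMDM, 17 in mdx and 16 in mdxTLR4-/-. Around one 12313 bp into Npc1 there were 38, 16 and 18 reads, highest in WT. Mcoln1 had no peak at any annotated start, with the nearest 115544 bp or more away, and neither of its 2 CACGTG sites was covered.

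The V-ATPase has a membrane sector, V0, and a catalytic sector, V1. Atp6v1a, the catalytic subunit, had 99, 84 and 69 reads in WT, mdx and mdxTLR4-/- BMDM in a peak that also covered the start of Naa50. Atp6v1b2, the B subunit of most tissues, had 26, 23 and 26 reads, and its peak at the start also covered the start of Slc18a1. Atp6v0d1, a V0 subunit of most tissues, had 36, 28 and 31. The lists lay close together in reads for these 2, but in density Atp6v0d1 was highest in WT (13.8, 7.37 and 6.74 reads per kb), and Atp6v1b2 (9.29, 12.8 and 7.65) and Atp6v1a (10.5, 15.6 and 11.5) in mdx. The site at -3 in Atp6v0d1 was covered in all of them. Atp6v0d2, the isoform of osteoclasts and some macrophages, had no H3K27ac peak at any annotated start. Atp6v1h, a regulatory subunit, had none at its most upstream start, and at a start 13062 bp further in it had 10 reads in WT, 14 in mdxTLR4-/- BMDM and no peak in mdx.

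Tfeb had a peak at its most upstream start in mdx only, with 11 reads from 229 bp upstream to 1570 bp downstream. At a start 32208 bp further in, peaks with 27 reads in WT and 16 in mdxTLR4-/- BMDM were present, so that at some annotated start Tfeb was Increased in each list. Values at inner starts are given here only for lists without a peak at the most upstream start. Whether mdx also had a peak at the inner start of Tfeb is therefore not given, nor are WT and mdx at those of Manba and Npc2. Counting every annotated start, 27 of the 35 genes were Increased in all 3 lists, and Smpd1, Mcoln1 and Atp6v0d2 were Increased in none. Taken list by list, this wider count gave 30 lysosome genes for WT, 28 for mdx and 29 for mdxTLR4-/-. Protein-coding genes rose with it too, from 32.0% to 35.2% for WT, 27.4% to 30.4% for mdx and 29.4% to 32.7% for mdxTLR4-/-. How many of them reached all 3 lists this way is not given, so 27 of 35 has no comparison.

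The 7 genes whose designation differed were Ctsk, Tpp1, Gaa, Manba, Neu1, Npc2 and Tfeb. From WT to mdx a peak was lost at 2 genes, Ctsk and Gaa (8.08% of protein-coding genes lost one), and gained at 2, Tpp1 and Tfeb (3.54%). Of the genes with a peak in WT, 2 of 26 lost it, against 25.3% of such protein-coding genes. From WT to mdxTLR4-/- a peak was lost at 4, Ctsk, Gaa, Manba and Npc2 (7.0%), and gained at 1, Neu1 (4.45%), and among protein-coding genes with a peak in WT 21.9% lost it, against 4 of 26 here. From mdx to mdxTLR4-/- it was lost at 4, Tpp1, Manba, Npc2 and Tfeb (4.82%), and gained at 1, Neu1 (6.82%), and 4 of 26 genes with a peak in mdx lost it, against 17.6%. These comparisons share lists and are not independent of each other. The highest count in any list at the 7 genes was 13 reads, with a median of 9, which is also the median of protein-coding genes whose designation differed. At the 22 genes with a peak in all 3 lists the median was 43.5 reads in WT BMDM, 35 in mdx and 33.5 in mdxTLR4-/-. The peaks that differed thus held few reads, near the median peak of the lists (10 reads in WT and mdx, 8 in mdxTLR4-/-). No peak in another list means that none was detectable at its depth.

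Ratios of the summed reads were computed for genes with reads in both lists, and they move with the length called as well as with the reads per kb. Because the depth of the libraries is unknown, each ratio was also divided by the median ratio of protein-coding genes, which was 0.783 for mdx over WT (n = 5341 genes), 0.688 for mdxTLR4-/- over WT (n = 5591) and 0.875 for mdxTLR4-/- over mdx (n = 5065), and the result is called the relative ratio, with an interval that covers the reads of the gene alone. For mdx over WT the median ratio of the lysosome genes was 0.867 (quartiles 0.726 and 0.931, n = 24), and the median relative ratio was 1.11. For mdxTLR4-/- over WT the median was 0.761 (quartiles 0.601 and 0.903, n = 22), with a relative ratio of 1.11, and for mdxTLR4-/- over mdx it was 0.889 (quartiles 0.782 and 1.02, n = 22), with a relative ratio of 1.02. Read numbers were lower in mdx than in WT at 19 of 24 genes and lower in mdxTLR4-/- than in WT at 20 of 22, but so were those of most protein-coding genes (3798 of 5341 and 4462 of 5591). The direction of the unscaled ratio depends on the scaling: divided by all reads in the peaks of each list, the medians were 1.24, 1.24 and 1.01. The relative ratios do not change with this scaling, but with reads per kb of each list's own peaks their medians were 0.979, 0.907 and 0.916, so that their direction against other genes depends on the measure for all 3 comparisons.

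**Figure D4:**
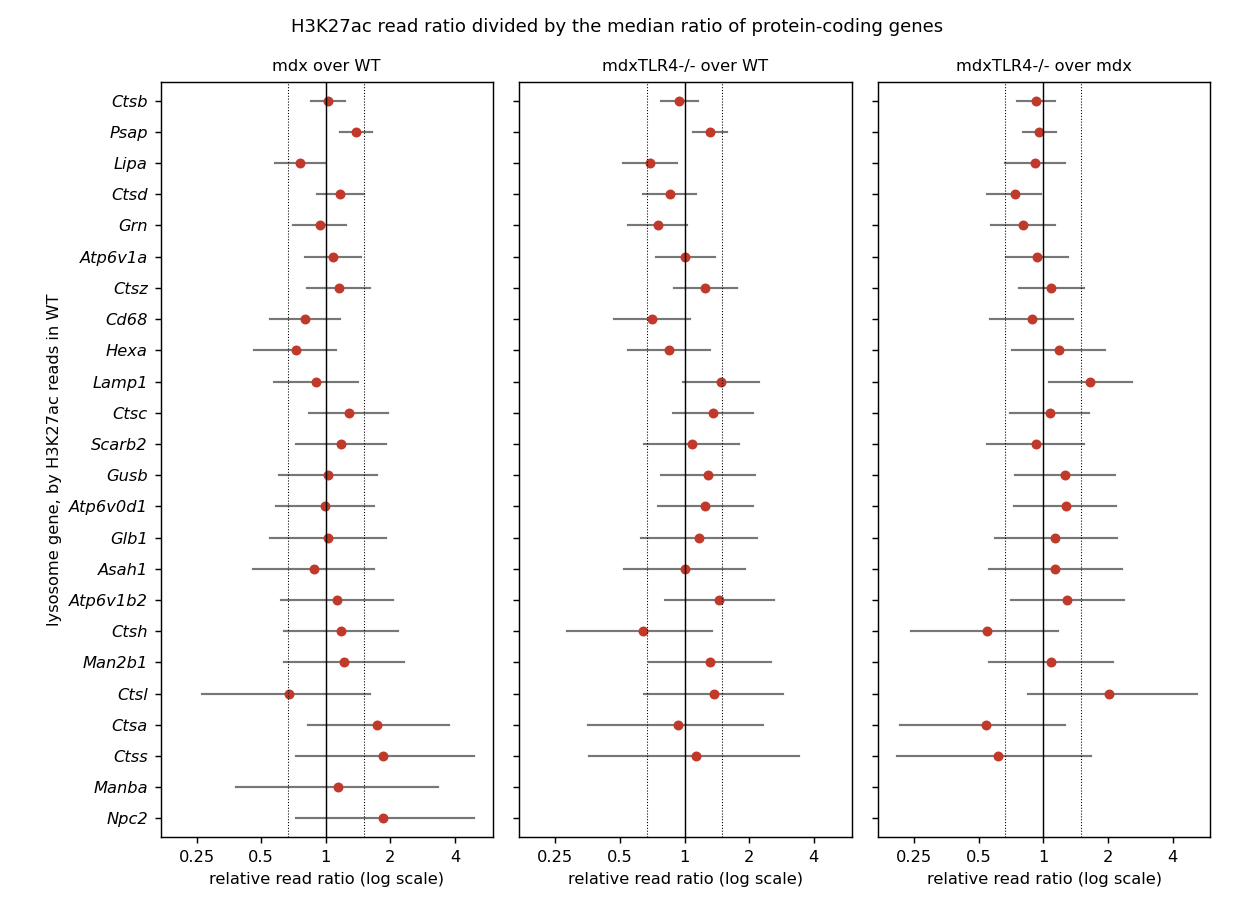
Relative ratio of H3K27ac reads (log scale) for the lysosome genes with reads in both lists, ordered by reads in WT, for mdx over WT, mdxTLR4-/- over WT and mdxTLR4-/- over mdx. Points are ratios divided by the median ratio of protein-coding genes, bars are exact 95% intervals of the read counts, summed reads depend on the length called in each list, the solid line is 1 and the dotted lines mark 1.5 times in either direction. Most intervals include 1. Over WT, those of Psap, with a relative ratio of 1.38 in mdx and 1.32 in mdxTLR4-/- BMDM, and Lipa, with 0.761 and 0.694, do not. For mdxTLR4-/- over mdx, those of Lamp1 (1.65) and Ctsd (0.735) do not.

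A relative ratio of summed reads of at least 1.5 was found for mdx over WT at 3 of 24 genes, Ctss, Ctsa and Npc2 (16.0% of protein-coding genes), and one of at most 1/1.5 at 0 (15.4%). For mdxTLR4-/- over WT the numbers were 0 (15.9%) and 1 of 22, Ctsh (17.3%), and for mdxTLR4-/- over mdx 2, Ctsl and Lamp1 (16.9%), and 3, Ctsh, Ctss and Ctsa (17.4%). Apart from Lamp1, every one of these rested on 25 reads or fewer per list. For Ctss the WT and mdx peaks share no base, so that its ratio is no change at 1 place, and for Npc2 a peak of 3400 bp in mdx stands against 1400 bp in WT, with a lower density in mdx (3.82 against 6.43 reads per kb). The interval of the relative ratio lay above 1 for mdx over WT at 1 gene, Psap (4.44% of protein-coding genes), and below 1 at 1, Lipa (5.22%). The relative ratio of Psap was 1.38 (interval 1.16 to 1.64) and that of Lipa 0.761 (interval 0.58 to 0.995). The same genes lay outside 1 for mdxTLR4-/- over WT, Psap at 1.32 (interval 1.1 to 1.58; 4.88%) and Lipa at 0.694 (interval 0.516 to 0.924; 5.06%), and both comparisons use the same WT list. For mdxTLR4-/- over mdx they were Lamp1 at 1.65 (interval 1.06 to 2.6; 5.27%) and Ctsd at 0.735 (interval 0.549 to 0.979; 4.17%). Called length moved with these ratios. From mdx to mdxTLR4-/- Lamp1 went from 2800 to 6600 bp while its density fell from 12.9 to 7.88 reads per kb, the opposite direction. Over its whole merged region Ctsd went from 17000 to 11200 bp under peaks, at 7.41 and 7.23 reads per kb. Psap had a lower density in mdxTLR4-/- than in WT (14.4 against 18.3 reads per kb) despite its relative ratio, and Lipa had a lower one in mdx and mdxTLR4-/- (10.2 and 10.0) than in WT (12.8). One gene each way among 22 to 24 is close to the share in protein-coding genes.

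Among genes with at least 20 reads in WT, the unscaled ratio of mdx over WT was highest at Psap (1.08, interval 0.91 to 1.28) and lowest at Hexa (0.567, interval 0.361 to 0.877). For mdxTLR4-/- over WT it was highest at Lamp1 (1.02, interval 0.679 to 1.53) and lowest at Ctsh (0.44, interval 0.195 to 0.927). After division by the median of protein-coding genes the intervals of Hexa (0.461 to 1.12), Lamp1 (0.988 to 2.23) and Ctsh (0.284 to 1.35) included 1.

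H3K27me3 was sparse at the lysosome genes. For each gene the share under H3K27me3 peaks was computed for a window that holds the gene body, the 5 kb before it and the 1 kb after it. Any coverage was found at 5 of 35 genes in WT (14.3%; 38.4% of protein-coding genes), 7 in mdx (20%; 41.3%) and 5 in mdxTLR4-/- BMDM (14.3%; 39.0%), and at 8 in at least 1 list (44.5% of protein-coding genes). No lysosome gene reached 50% of its window in any list, against 16.6%, 16.3% and 14.9% of protein-coding genes, and no start lay under a peak, against 23.5%, 23.8% and 22.7%. The mean coverage was 2.34%, 2.11% and 1% in WT, mdx and mdxTLR4-/- BMDM (17.6%, 17.4% and 16% in protein-coding genes).

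**Figure D5:**
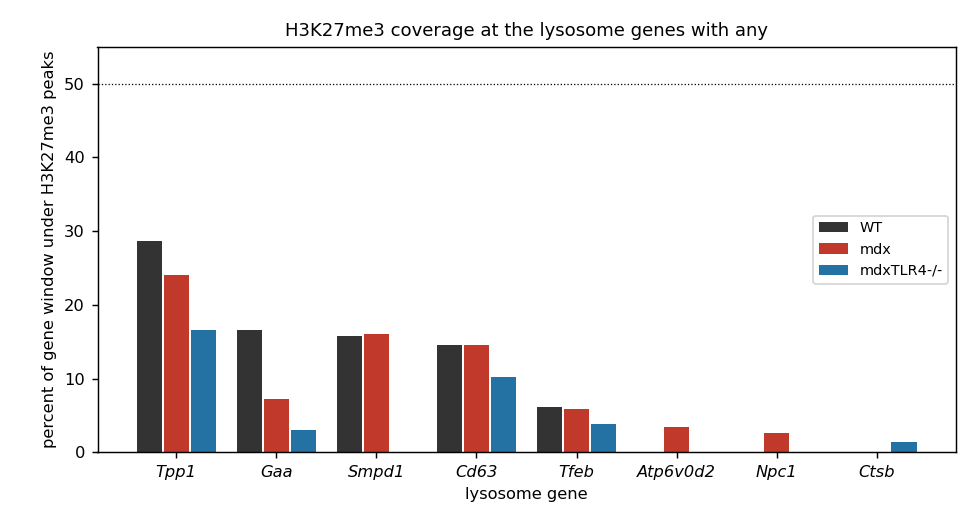
Percent of the gene window under H3K27me3 peaks in WT, mdx and mdxTLR4-/- BMDM for the 8 lysosome genes with any coverage, ordered by the highest list. Each bar is 1 peak list, with no replicate error, and the dotted line marks 50%. The highest value is 28.6%, at Tpp1 in WT.

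At 4 of the 8 genes the mark came from a domain over a neighbour upstream, present in every list. For Tpp1 the coverage was 28.6% in WT BMDM, 24.1% in mdx and 16.6% in mdxTLR4-/-, from a peak inside Dchs1, a cadherin gene, whose near end lay 1166 bp upstream of the Tpp1 start in WT, with 1766 bp in mdx and 2766 bp in mdxTLR4-/- BMDM. For Gaa it was 16.6%, 7.27% and 3.03%, from a peak in Ccdc40, a gene of motile cilia, which measured 17000 bp, 5400 bp and 4200 bp in WT, mdx and mdxTLR4-/- BMDM. For Cd63 it was 14.6%, 14.6% and 10.2%, from a peak over the start of Gdf11, and for Tfeb 6.14%, 5.82% and 3.86%, from a peak over the start of Pgc, which encodes a stomach protease. In each of these the mark ended before the lysosome gene, with 0 bp in its body, and the peak was shortest in mdxTLR4-/- BMDM.

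At the other 4 genes the peaks were not shared by all lists. Smpd1 had 15.8% in WT, from a peak of 13200 bp that began in its last 589 bp and ran on over Apbb1, and 16.0% in mdx, from a different peak of 1600 bp that lay 2760 to 4359 bp upstream, and none in mdxTLR4-/- BMDM. Like values in WT and mdx thus came from different places. Atp6v0d2 had 3.48% in mdx only, from a peak of 1800 bp with 41 reads inside the gene, and Npc1 had 2.66% in mdx only, from a peak of 2400 bp with 62 reads upstream. Ctsb had 1.36% in mdxTLR4-/- BMDM only, from a peak of 400 bp with 38 reads that lay 3062 to 3461 bp upstream of the start and outside its H3K27ac peak.

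The coverage changed by at least 10 percentage points from WT to mdx at 0 genes in either direction (5.51% of protein-coding genes were lower and 4.9% higher). From WT to mdxTLR4-/- it was lower at 3 genes, Tpp1, Gaa and Smpd1 (8.41%), and higher at 0 (2.61%). From mdx to mdxTLR4-/- it was lower at 1, Smpd1 (7.73%), and higher at 0 (2.52%). A count of 3 in 35 genes is close to the share of protein-coding genes. Coverage can be lost only where WT has it, at 5 of the 35 genes (14.3%), these 3 among them, against 38.4% of protein-coding genes. The share lost among protein-coding genes with such coverage is not given here.

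Set beside each other, the 2 marks were mostly apart. Of the 22 genes with H3K27ac in all 3 lists, 1, Ctsb, had any H3K27me3 coverage (4.55%; 20% of the 4634 protein-coding genes with such H3K27ac). Of the other 13 genes, 7 had some (53.8%; 51.1% of 17304). The members that lacked H3K27ac in a list were therefore like other such genes in this respect.

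Of 83 further lysosomal genes (other hydrolases, carriers, V-ATPase subunits, and the Lamtor and Rag proteins that tie the lysosome to mTORC1), 52 had an H3K27ac peak in WT BMDM (62.7%), 49 in mdx (59%) and 48 in mdxTLR4-/- (57.8%). These shares lay between those of the 35 genes and of protein-coding genes. The median relative ratio was 0.903 for mdx over WT (n = 43), 0.973 for mdxTLR4-/- over WT (n = 43) and 1.05 for mdxTLR4-/- over mdx (n = 42), so that the first lay below 1 here and above 1 at the 35 genes, a difference that was not tested. Any H3K27me3 coverage was found at 29 genes in WT BMDM (34.9%), 25 in mdx (30.1%) and 23 in mdxTLR4-/- (27.7%), and coverage of at least 50% at 6, 5 and 5. The following were chosen after their values were seen. Atp6v1b1, the kidney isoform of the B subunit, had 100% coverage in each list and no H3K27ac peak, unlike its paralogue Atp6v1b2 among the 35 genes. Of the relatives of Tfeb, Tfe3 had 25 H3K27ac reads in WT and 13 in each of the other lists, Tfec had 37, 24 and 31, and Mitf had a peak at its most upstream start in mdxTLR4-/- BMDM only, with 5 reads.

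Peaks over promoters with and without CACGTG were counted last. Of the 8 lysosome genes with this site in the promoter, 6 had H3K27ac over the promoter in WT, 5 had it in mdx and 6 in mdxTLR4-/- BMDM, and of the 20 without it 14, 16 and 13 had. Among protein-coding genes the shares were 35.9%, 31.3% and 33.4% with the site and 26.4%, 22.8% and 23.9% without it. At the lysosome genes the shares with and without the site thus did not keep 1 order across the lists. Of the 13 CACGTG sites, 7 lay under a peak in WT BMDM, 6 did in mdx and 9 in mdxTLR4-/-, the higher number in mdxTLR4-/- coming from the 4 sites of Lamp1.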

How the data were processed

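ChIP-seq for H3K27me3 and H3K27ac was made from BMDM of 3 genotypes, in 18 samples. Per the submitters' processing notes, CASAVA 1.8, cutadapt 1.15, Bowtie2 2.3.4 and SICER 2.0 were used with mm10. The authors merged replicates, called peaks with a 200 bp window and deposited 6 lists whose value is a raw count of ChIP reads per peak, not scaled for depth or length. Removal of duplicate reads is not given in the sources used here. The label mTLR4 was read as mdxTLR4-/-, and island ends were taken as inclusive.

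Genes were those of GENCODE vM21 outside the mitochondrial genome. Peaks were counted within 5000 bp of the most upstream start, reads were summed over regions merged across lists, and H3K27me3 coverage was taken over each gene window. No p-value was computed, since each group is 1 list. A loss or gain of a peak, a relative ratio past 1.5 and a change of 10 percentage points served as descriptive limits. Every member is reported, and those described in full were the members whose peak differed between lists, had H3K27me3, lacked H3K27ac, held the most reads (5 genes) or had the highest or lowest ratio. The members, the gene lists and the limits were chosen with earlier results of these data known. Promoter sequences and starts are those of RefSeq. Overlaps, coverage and ratios were tested on simulated lists with known answers. Scripts ran in Python 3.11.15, with pandas 2.3.3 for tables, numpy 2.4.6 for sums, matplotlib 3.10.9 for plots and scipy 1.17.1 for intervals.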

Additional observations from a re-analysis of the deposited data

How the results depend on the processing

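No paired analysis was possible because the replicates were merged before peaks were called and the lists carry no replicate number, and for the same reason no replicate could be left out. The number of lysosome genes with an H3K27ac peak stayed within 1.5 times under every alternative: 21 to 30 in WT, 21 to 28 in mdx and 20 to 29 in mdxTLR4-/- BMDM. Under these alternatives 24.4% to 35.2% of protein-coding genes had a peak in WT. The shares were 19.8% to 30.4% in mdx and 17% to 32.7% in mdxTLR4-/- BMDM. With all annotated genes as background, 19.6%, 16.4% and 17.4% had a peak.

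Counts of lost and gained peaks are small and moved more. The shares of protein-coding genes that lost or gained a peak under these alternatives are not given here. The counts below therefore have no comparison with other genes. Within 1 kb of the start, mdxTLR4-/- gained 2 against WT. With the 5 kb upstream alone, mdx lost 6 against WT, and mdxTLR4-/- gained 2 against WT and 4 against mdx. With any annotated start, mdx gained 1 against WT, and mdxTLR4-/- lost 2 against WT and lost 1 and gained 2 against mdx. With peaks of at least 10 reads, mdx lost 1 against WT, and mdxTLR4-/- lost 1 and gained 0 against WT. With the same number of peaks per list, mdx lost 1 and mdxTLR4-/- gained 2 against WT.

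Divided by all reads in the peaks of each list, the median H3K27ac ratio turned to 1.24 for mdx over WT, 1.24 for mdxTLR4-/- over WT and 1.01 for mdxTLR4-/- over mdx. The medians of protein-coding genes under this scaling were 1.12, 1.12 and 0.995. Relative to the 1st percentile of read density, it moved to 0.666 for mdxTLR4-/- over WT and 0.778 for mdxTLR4-/- over mdx. The median relative ratio was not altered by these scalings, but with the density of each list's own peaks it was 0.979, 0.907 and 0.916 instead of 1.11, 1.11 and 1.02. The cause was not tested.

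For H3K27me3, 0 genes reached 50% under every alternative. With 5 kb either side of the start, coverage was lower by 10 points at 1 gene and higher at 1 in mdx against WT, and lower at 3 in mdxTLR4-/- against mdx. With peaks of at least 2 kb the counts lower were 1 in mdx against WT and 0 in mdxTLR4-/- against mdx. At the stricter density, 4 genes had any coverage in mdx, and 0 were lower in mdxTLR4-/- against mdx.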
